A study of Mus musculus with 19 samples.

Results

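Mitochondria carry their own ribosome, and its proteins are encoded in the nucleus, made in the cytosol and imported. The genes described here are all protein-coding genes of the mouse whose symbol begins with Mrpl or Mrps followed by a number, the large and small subunit proteins of that ribosome. The GENCODE M21 annotation (GRCm38) lists 78 such genes and 77 of them have a row among the 39179 genes counted; Mrpl33 was not analysed here. By known structure 50 of the 77 encode proteins of the large subunit and 26 of the small subunit, with Mrps18a and Mrps30 placed in the large one. Mrps36, the remaining gene, is now known as a component of the 2-oxoglutarate dehydrogenase complex. A bacterial counterpart is known for 29 of the large and 16 of the small subunit proteins, and the others (21 and 10) are specific to mitochondria.

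Messenger RNA was sequenced from cerebral microvessels of male C57BL/6 mice bought at 7 weeks of age, in 19 libraries. The groups were 4 libraries of room air (titled Room-air), 4 of nicotine-free e-cigarette exposure (Nic-free), 3 of nicotine e-cigarette exposure (Nic), 4 of smoke exposure (smoke) and, under the title air, 4 more of room air. The labels give no genotype beyond the strain, and the length and dose of the exposures, the batch, and which air set belongs to which exposure are not given in the sources used here. By the style of the titles, Room-air served as control for Nic-free and Nic, and air as control for smoke. Nothing says that the libraries of a group came from separate mice, and p-values then rest on a spread that may be technical.

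Mitochondrial ribosomes translate a small set of mRNAs of the mitochondrial genome, each of which encodes a core part of the respiratory chain or of ATP synthase. The large subunit forms peptide bonds and carries the exit tunnel, the small subunit binds the mRNA and reads its codons, and a flexible stalk on the large subunit recruits translation factors. Brain endothelial cells are known for a high mitochondrial content. The 13 protein genes of the mitochondrial genome are listed at 0 in all 19 libraries, so the mRNAs that these ribosomes translate could not be set beside the ribosomal proteins.

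Depth differed between the groups: total counts ran from 25.3 to 30.2 M (M, 1e6 counts) in Room-air, 15.2 to 19.1 M in Nic-free, 21.8 to 28.4 M in Nic, 9.8 to 13.5 M in air and 7.9 to 12.6 M in smoke. The labelled tissue was checked against 15 endothelial markers, and all 15 were detected in every library, as were all markers of pericytes, astrocytes, neurons, oligodendrocytes and choroid plexus or ependyma. Detection alone thus does not identify the tissue. Endothelial markers made up 0.312 to 0.43% of counts in Room-air, 0.222 to 0.339% in Nic-free, 0.322 to 0.582% in Nic, 0.148 to 0.269% in air and 0.27 to 0.361% in smoke. Neuronal markers made up 0.702 to 0.783, 0.951 to 1.1, 0.728 to 0.764, 0.843 to 1.1 and 0.639 to 1.03% in the same order. Oligodendrocyte markers, above the endothelial ones in every library, made up 1.28 to 1.54, 1.88 to 2.06, 0.923 to 1.52, 2.29 to 3.19 and 1.67 to 2.44%. Choroid plexus or ependymal markers made up 2.26 to 3.01, 0.133 to 2.25, 0.302 to 0.926, 0.457 to 2.84 and 0.239 to 3.53%. Reads assigned to no gene were 30.7% ± 2.28 (SD, n = 4) of reads in Room-air, 42.1% ± 2.57 (n = 4) in Nic-free, 36.4% ± 2.97 (n = 3) in Nic, 35.4% ± 1.63 (n = 4) in air and 30.8% ± 1.85 (n = 4) in smoke. In bulk RNA, fewer cells of a type and less RNA per cell cannot be told apart.

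All 77 genes had at least 1 count in each of the 19 libraries, all passed the low-count filter of every comparison, and 70 had a mean of at least 10 counts per 1e6 counts (CPM). Together they took a small and fairly even share of the counts: 0.181% ± 0.0035 in Room-air and 0.187% ± 0.0009 in Nic-free (SD, n = 4 each). The share was 0.169% ± 0.0089 in Nic (n = 3), 0.212% ± 0.0128 in air and 0.187% ± 0.0077 in smoke (n = 4 each). The 4 air libraries, at 0.197 to 0.225%, lay above every other library. The Nic libraries stood at 0.171, 0.160 and 0.177%, all below the lowest Room-air library at 0.178%, although the third was close to it. By gene, the highest group mean was that of air in 61 of the 77 genes, and the lowest was that of Nic in 48.

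**Figure D1:**
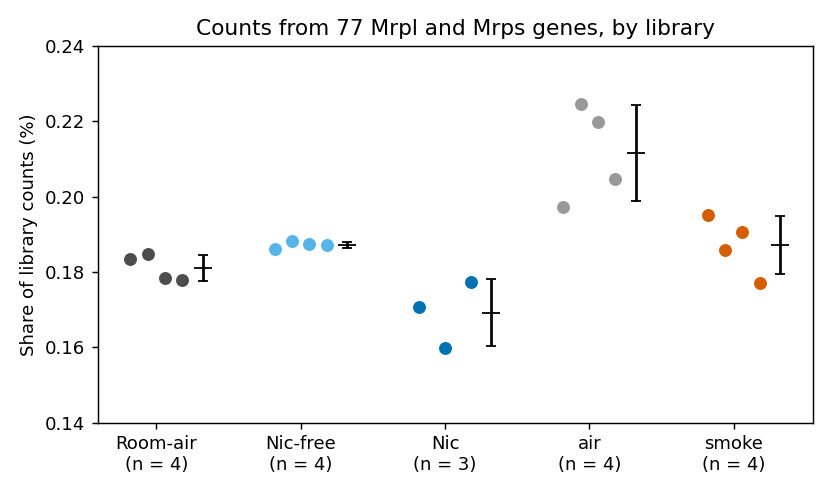
Share of each library's counts that came from the 77 genes (vertical axis, %, not starting at 0), with libraries as points by group and the mean with its SD as a bar beside them. The 4 air libraries, at 0.197 to 0.225%, are above all others, and Nic holds the lowest library at 0.160%.

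Within a group the libraries did not always agree. The median gene stood at 89.9, 82.3 and 98.8% of its Room-air mean in Nic 1, 2 and 3, so Nic 3 was at the level of the controls while Nic 2 was the lowest of the group in 54 genes. In the air set the same medians were 107, 123, 123 and 112%, and air 1 was the lowest of its group in 45 genes. The Nic-free libraries were close to each other, at 103, 104, 101 and 101%, and the smoke libraries stood at 107, 102, 103 and 98.6%.

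The genes differed far more among themselves than between groups. Per kilobase of all exons of the gene together, averaged over the 19 libraries, the highest were Mrpl41 (48.2 CPM per kilobase), Mrps21 (31.2), Mrpl24 (29.4), Mrpl12 (25.9) and Mrpl2 (24.8). The lowest were Mrpl23 (0.96), Mrps36 (1.73), Mrps35 (2.0), Mrps30 (2.13) and Mrpl53 (2.35). This order depends on the length used, because some annotated genes hold exons far beyond the usual transcript. Per kilobase of the principal transcript, a length chosen after these values were seen, the first 5 were Mrpl41 (55.2), Mrpl24 (49.5), Mrps21 (47.2), Mrpl52 (44.8) and Mrpl20 (44.3), and 3 of the 5 highest and 2 of the 5 lowest were shared with the first order. Mrpl23, a protein at the exit of the peptide tunnel, moved from the lowest place to 6.77. The genes lie on 17 chromosomes. Their principal transcripts are short, with a median of 1316 bases.

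Some exon bases are shared with neighbouring genes. Over 20% of exon bases lie on the opposite strand of another gene in 8 of the genes, among them Mrps25 (69.8%, Nr2c2), Mrps34 (63.4%, Mapk8ip3) and Mrpl43 (33.4%, Twnk). Over 20% are shared with a gene on the same strand in 3: Mrpl53 (88.0%, Gm42688), Mrps34 (37.0%, Nme3) and Mrps18c (23.2%, Gm43511). Reads listed as ambiguous, which count for no gene, made up from 0.35% (Nic-free 2) to 0.51% (Room-air 2) of reads. Bases shared on the same strand cannot be told apart by strand. For the opposite strand, whether counting used the strand is not given in the sources used here. The counts of these 10 genes are thus uncertain, and so is the low level of Mrpl53 above. The other 67 are used as an added check below.

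The promoters of genes that are read together often hold the same short motifs, so the windows from 250 bases before to 50 after the start were read for 68 of the 77 genes in RefSeq (GRCm38.p6). Letters were searched on both strands. The 68 genes had 74 windows, and a gene was counted once if any of its windows held the letters. The core of the ETS motif bound by GABP, CCGGAAG, was found for 25 of the 68 genes (36.8%), against 17.6% of all protein-coding genes tested that had a window. The NRF1 motif (GCGC, then any base, then TGCGC) was in 19.1% against 10.2%, and the YY1 letters AAGATGGC in 17.6% against 4.68%. At least 1 of these 3 was in 61.8% against 28.6%. The GC box GGGCGG was found for 34 of the 68 genes, against 66.5% of all protein-coding genes tested that had a window, and CCAAT for 38.2% against 42.3%. These 5 spellings were picked from 15 after the counts had been seen; over the other 10, the share among the 68 ran from 1.47 to 57.4%. A match of letters is no evidence of binding, and windows of other lengths were not read. The stretches below lie upstream of the annotated exons and are shown since they hold such letters in genes whose counts moved (Mrpl52, Mrpl43 and Mrpl45) and in 1 whose counts did not in Nic against Nic-free (Mrps22); capitals mark the matched letters on either strand, and each runs 5′ to 3′ on the strand of its gene.
Mrpl52, chr14:54426789-54426908 (plus strand): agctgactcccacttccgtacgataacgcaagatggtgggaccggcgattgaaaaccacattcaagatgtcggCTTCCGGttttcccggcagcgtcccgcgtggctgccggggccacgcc
Mrpl43, chr19:45006443-45006557 (minus strand): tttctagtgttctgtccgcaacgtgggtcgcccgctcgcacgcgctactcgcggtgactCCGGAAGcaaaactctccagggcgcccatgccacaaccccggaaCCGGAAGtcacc
Mrpl45, chr11:97315596-97315715 (plus strand): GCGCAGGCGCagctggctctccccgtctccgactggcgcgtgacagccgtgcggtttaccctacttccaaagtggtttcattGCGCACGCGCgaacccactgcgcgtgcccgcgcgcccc
Mrps22, chr9:98601680-98601799 (minus strand): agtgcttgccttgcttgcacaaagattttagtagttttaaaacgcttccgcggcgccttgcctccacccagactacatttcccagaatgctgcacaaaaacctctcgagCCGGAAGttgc

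Nic against Nic-free, the 2 e-cigarette groups, asks what differs with nicotine. In Nic, 33 of the 77 genes were lower than in Nic-free and 1 was higher (edgeR quasi-likelihood test, adjusted p under 0.05 over 17235 genes). Of all genes tested, 24.8% passed: 12.4% were lower and 12.4% higher. The median log2 fold change of the 77 was -0.26, against 0.02 for all genes tested. Of the large subunit genes 25 of 50 were lower, and of the small subunit genes 8 of 26. Among genes with a bacterial counterpart 18 of 45 were lower, and among those specific to mitochondria 15 of 31.

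Mrpl52, a mitochondria-specific protein of the large subunit, was at 18.3, 24.04, 22.5 and 19.9 CPM in Nic-free 1 to 4 and at 13.9, 9.06 and 16.7 CPM in Nic 1 to 3. Its groups did not overlap, and the log2 fold change was -0.75 ± 0.17 (SE; adjusted p = 0.0057). Mrpl34, the counterpart of the bacterial protein bL34, was at 17.0, 14.7, 13.4 and 15.7 CPM in Nic-free and at 9.91, 9.02 and 9.73 CPM in Nic, where the 3 libraries were nearly equal. Its log2 fold change was -0.74 ± 0.11 (adjusted p = 0.000687). Mrpl54 was at 12.2, 14.7, 15.3 and 12.4 CPM in Nic-free and at 8.58, 7.84 and 9.34 CPM in Nic, again without overlap. The others of the 8 lowest by fold change among the genes that passed were Mrps28 (-0.83), Mrpl27 (-0.68), Mrpl48 (-0.59), Mrps34 (-0.59) and Mrpl20 (-0.58), with adjusted p of 0.00265 or less. Mrps36, which is not a ribosomal protein, had -0.70 without passing (adjusted p = 0.0616). In Nic the ranges of 33 of the 77 genes lay wholly below Nic-free, and those of 4 wholly above it; over all genes tested 13.2% lay below and 20.7% above.

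The proteins of the stalk were all lower in Nic than in Nic-free. Mrpl12, whose copies form the stalk itself, was at 38.4, 40.02, 37.5 and 43.0 CPM in Nic-free and at 27.2, 27.0 and 35.7 CPM in Nic. Nic 3 was the highest of its group and still below every Nic-free library, and the log2 fold change was -0.48 ± 0.11 (adjusted p = 0.00603). Mrpl10, which anchors the stalk, changed by -0.25 and Mrpl11, at its base, by -0.39 on the log2 scale (adjusted p = 0.0284 and 0.00765). The call of Mrpl10 was not stable: it passed in 4 of the 13 alternatives tried, which include leaving out each library, with an adjusted p of up to 0.117, where Mrpl12 passed in 13 and Mrpl11 in 12. Mrpl58, a release factor built into the large subunit that rescues stalled ribosomes, was lower by a log2 fold change of -0.32 (adjusted p = 0.0158). On the small subunit, Mrps16 had a log2 fold change of -0.46 and an adjusted p of 0.0235, with overlapping ranges, and passed in 7 of 13 alternatives.

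Mrps17 was the exception in direction. This small subunit protein was at 29.1, 31.3, 30.5 and 34.1 CPM in Nic-free and at 42.6, 40.03 and 41.7 CPM in Nic, above every library of the other 4 groups, whose highest was 38.9. Its log2 fold change was 0.34 ± 0.09 (adjusted p = 0.0152). Mrpl3, near the site where peptide bonds form, had the next largest positive value, 0.24 (adjusted p = 0.0719). Others near 0 were Mrps2 (0.02), Mrps18b (0.02) and Mrps22 (-0.04), while Mrps12, the decoding-centre protein, and Mrpl44 each stood at -0.25 without passing (adjusted p = 0.174 and 0.12). The 3 copies of the S18 family therefore did not give 1 value: Mrps18a (-0.34) and Mrps18c (-0.36) were lower, passing in 11 and 5 of 13 alternatives, and Mrps18b was not called; differences between the copies were not tested.

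**Figure D2:**
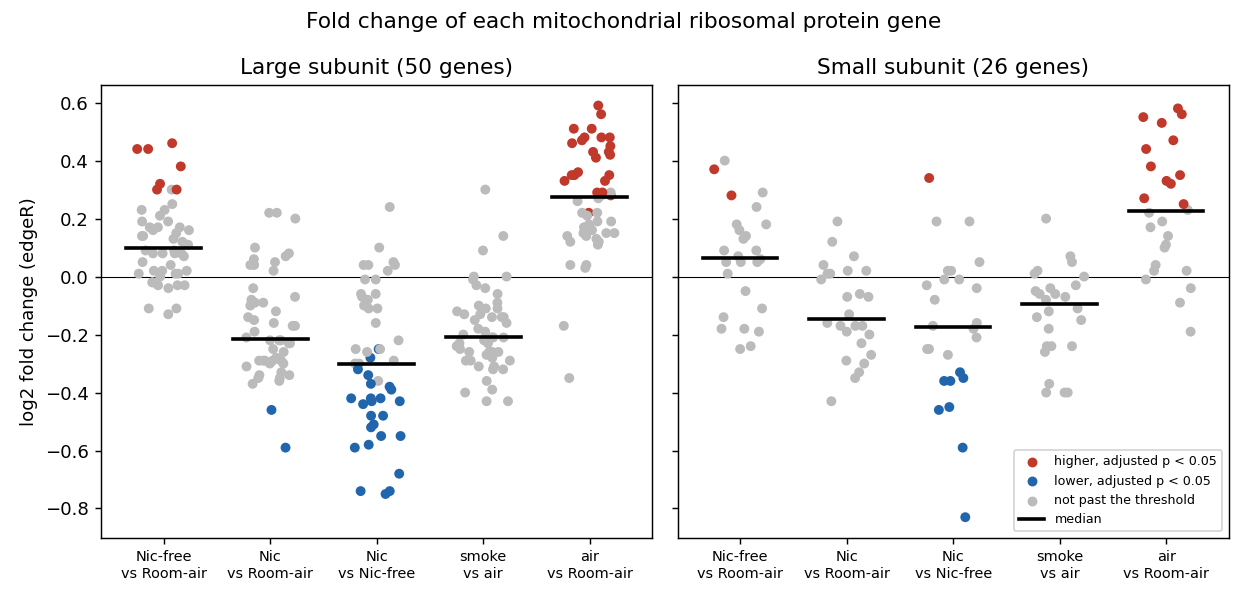
Log2 fold change (vertical axis) of each large subunit gene (left, 50 genes) and small subunit gene (right, 26 genes) in 5 comparisons, with genes past an adjusted p of 0.05 coloured and the median as a black line; Mrps36 is left out. Nic against Nic-free holds 33 blue points and air against Room-air 36 red ones, while smoke against air holds none.

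Cell type markers were set beside these values, each list by the mean log2 CPM of its markers and an exact permutation test, adjusted over the 55 tests of this family (unassigned reads included), none of which passed. Endothelial markers were 1.8-fold and pericyte markers 1.55-fold their Nic-free level in Nic (adjusted p = 0.126 and 0.152), and neuronal, astrocyte and oligodendrocyte markers were at 0.775, 0.773 and 0.693 of it (adjusted p = 0.0982, 0.0982 and 0.152). The other 5 lists had adjusted p of 0.286 or more. The smallest p that this exact test allows is 0.0286, both for 3 against 4 and for 4 against 4 libraries. Tests at that p had an adjusted p of 0.0982, so groups wholly apart did not pass either. That no list passed is thus no evidence that markers were alike. Neuronal markers were at 0.728 to 0.764% of counts in Nic and 0.951 to 1.1% in Nic-free. The part of these cell type markers and of unassigned reads in the fold changes was not tested. Across the 77 genes the rank correlation of transcript length with fold change was 0.38, and across 15173 protein-coding genes 0.31; both are descriptions across genes of the same libraries. The count of called genes rests on single libraries: it was 15 without Nic 1 and 42 without Nic 3. Shares of all genes passing are given for the main fits only, here and below. Counts under an alternative therefore cannot be set against them.

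Nic-free against Room-air asks what vapour without nicotine does. In that comparison 9 of the 77 genes were higher in Nic-free and 0 were lower, where 21.8% of 17235 genes tested passed, 11.3% higher and 10.4% lower; the share higher was thus close to that of all genes. The 9 were Mrpl52, Mrpl45, Mrpl30, Mrpl54, Mrps18c, Mrpl20, Mrpl48, Mrpl41 and Mrps14. Mrpl45, which tethers the large subunit to the inner membrane, was at 23.9, 21.8, 25.5 and 25.0 CPM in Room-air and at 28.5, 31.7, 31.2 and 34.9 CPM in Nic-free. All Nic-free libraries were above all Room-air libraries, with a log2 fold change of 0.44 ± 0.09 (adjusted p = 0.00345). Over the 77 genes, ranges in Nic-free lay wholly above Room-air in 12 and wholly below in 3, where 11.2 and 15.6% of all genes did so. Mrpl30 was at 30.9, 27.7, 28.9 and 27.8 CPM in Room-air and at 35.5, 41.3, 39.0 and 34.8 CPM in Nic-free, with a log2 fold change of 0.44 ± 0.09 (adjusted p = 0.00471). Mrpl52 had 0.46 ± 0.15 (adjusted p = 0.0438), but passed in only 4 of the 15 alternatives tried, failed in 10 and changed sign in 1. Mrpl45, Mrpl30 and Mrps18c passed in 14, 14 and 13 of the 15, and Mrpl41, Mrpl54, Mrpl20 and Mrpl48 in 8, 7, 6 and 6. Mrps18c had 0.37 (adjusted p = 0.0202), from 13.8 to 14.0 CPM in Room-air to 16.2 to 18.0 CPM in Nic-free.

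The genes with set roles mostly stayed under the threshold in Nic-free against Room-air. The stalk proteins Mrpl12, Mrpl10 and Mrpl11 had log2 fold changes of 0.19, 0.17 and 0.17, Mrps16 had 0.29, Mrps34 0.24 and Mrps18a 0.12. Mrpl58 had 0.07, Mrps12 and Mrps22 0.05 each, Mrpl44 0.02, Mrpl3 -0.02, Mrps18b -0.18 and Mrps2 -0.19. Adjusted p among these ran from 0.0939 upward. The median of the 77 was 0.09, against 0.00 for all genes tested. No marker list passed in this comparison, under the same limit of the exact test. Choroid plexus or ependymal markers were at 0.265 and endothelial markers at 0.706 of their Room-air level in Nic-free (exact permutation tests, adjusted p = 0.0982 and 0.126). Astrocyte, oligodendrocyte, microglial and neuronal markers were at 1.3, 1.27, 1.26 and 1.27 times it (adjusted p = 0.0982, 0.0982, 0.0982 and 0.126), and the other 4 lists had adjusted p of 0.152 or more. Their part was not tested. Without Nic-free 2 only 2 genes passed (Mrpl45 and Mrpl30). Against the air set in place of Room-air the sign turned: 0 of the 77 were higher and 6 were lower.

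In Nic against Room-air, 2 of the 77 genes were lower and 0 were higher, where 3.89% of 17235 genes passed, 2.67% lower and 1.22% higher. They were Mrpl34 and Mrpl57, both of the large subunit. Mrpl34 was at 14.1, 14.0, 15.6 and 12.8 CPM in Room-air against 9.91, 9.02 and 9.73 CPM in Nic, a log2 fold change of -0.59 ± 0.11 (adjusted p = 0.0218). Mrpl57 was at 16.4, 19.4, 16.7 and 16.2 CPM in Room-air and at 11.3, 12.7 and 13.9 CPM in Nic, with -0.46 ± 0.11 (adjusted p = 0.0347). Neither gene's groups overlapped, and they passed in 12 and 7 of the 14 alternatives tried. Ranges in Nic lay wholly below Room-air in 18 of the 77 genes and wholly above in 2, where 8.8 and 8.19% of all genes did so. Of the 77 log2 fold changes 58 were negative, with a median of -0.17 against 0.03 for all genes tested. Among the genes with set roles, Mrps34 had -0.35, Mrpl12 -0.29, Mrpl58 -0.25, Mrpl44 -0.23, Mrpl11 and Mrps18a -0.22 each and Mrps12 -0.20. Mrpl3 had 0.22, and Mrps16, Mrps2, Mrps18b, Mrpl10, Mrps22 and Mrps18c lay between -0.17 and 0.02.

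The number lower in Nic than in Room-air depended on the third Nic library and on the control. Without Nic 3, 25 of the 77 were lower and 1 (Mrpl1) was higher; with the air set as control 51 were lower and 0 higher. DESeq2 called 7 lower and 0 higher. The shares of all genes passing in these settings are not given here. Endothelial markers in Nic 2, the library with the lowest member levels, made up 0.322% of counts, against 0.573 and 0.582% in Nic 1 and 3. Oligodendrocyte markers made up 0.923, 1.02 and 1.52% in Nic 1, 2 and 3. Between groups the order was another: endothelial markers averaged 0.492% in Nic and 0.209% in air, the groups with the lowest and the highest share of the 77 genes. Of the marker lists, choroid plexus or ependymal markers in Nic were at 0.345 of their Room-air level (exact permutation test, adjusted p = 0.0982) and the other 9 lists had adjusted p of 0.246 or more; their part was not tested.

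Smoke against air gave no call: 0 of the 77 genes were higher and 0 lower by edgeR, where 1.6% of 15232 genes passed (1.08% higher, 0.519% lower). At an unadjusted p under 0.05, 0 were higher and 19 lower, and DESeq2 called 0 higher and 2 lower, Mrpl45 and Mrps14. The share of all genes at that unadjusted p is not given here, so this count does not set the 77 apart from other genes. The median log2 fold change was -0.18, against 0.02 for all genes tested, and 68 of the 77 values were negative. Mrpl45 came nearest, at 29.2, 33.0, 34.6 and 31.7 CPM in air and 26.7, 21.9, 25.7 and 24.2 CPM in smoke; the ranges did not overlap, and the log2 fold change was -0.36 ± 0.10 (adjusted p = 0.0787). Mrps14 stood at 25.7, 32.4, 28.9 and 23.9 CPM in air and 20.5, 21.7, 21.5 and 19.4 CPM in smoke (-0.40 ± 0.12, adjusted p = 0.0992). The groups of 13 genes lay wholly below air and those of 0 wholly above it, where 5.84 and 5.48% of all genes did so.

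Among the genes with set roles, Mrps16 and Mrps22 each had a log2 fold change of -0.40 in smoke against air, Mrps18c -0.37, Mrpl44 -0.32, Mrpl12 -0.31 and Mrps18a -0.28, none of which passed. Mrps2 had -0.24, Mrpl58 -0.21, Mrpl11 -0.20, Mrpl10 -0.16, Mrpl3 -0.14, Mrps34 -0.12, Mrps12 -0.06 and Mrps18b 0.20. In simulated counts at these depths the same test recovered 4% of genes changed by 0.32 on the log2 scale and 54% of those changed by 0.58. With Room-air as the control of smoke the median was 0.07 and 1 gene (Mrps9) was higher. No marker list passed in smoke against air, under the same limit of the exact test. Erythroid, endothelial and microglial markers were at 1.87, 1.53 and 1.27 times their air level (exact permutation tests, adjusted p = 0.0982, 0.126 and 0.0982), and neuronal and oligodendrocyte markers at 0.787 and 0.781 of it (adjusted p = 0.126 each). The other 5 lists had adjusted p of 0.152 or more, and the part of the markers was not tested.

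The 2 room air sets differed in more of these genes than any exposed group did from the control used for it, by count of calls. In air against Room-air 36 of the 77 genes were higher and 0 lower, where 22.7% of 16557 genes passed, 10.7% higher and 12.0% lower. The median log2 fold change was 0.25, against -0.00 for all genes tested. Higher genes numbered 24 of 50 in the large and 12 of 26 in the small subunit. Both sets carry the same treatment label, so exposure does not separate them, and what else differed between the sets is not given in the sources used here.

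Mrps35 was at 16.9, 14.4, 14.8 and 15.3 CPM in Room-air and at 19.2, 24.2, 22.8 and 23.1 CPM in air, with no overlap and a log2 fold change of 0.58 ± 0.10 (adjusted p = 0.000624). Mrps9, of the small subunit head, was at 31.0, 40.8, 36.6 and 37.3 CPM in Room-air and at 54.0, 51.9, 54.3 and 48.2 CPM in air, with 0.56 ± 0.08 (adjusted p = 0.000286). Mrpl30 had the largest value, 0.59 ± 0.11 (adjusted p = 0.00106), with air at 39.1, 49.7, 43.5 and 37.2 CPM. The others of the 8 largest were Mrpl54 (0.56), Mrps16 (0.55), Mrps18c (0.53), Mrpl12 (0.51) and Mrpl52 (0.51). The stalk proteins Mrpl10 (0.22) and Mrpl11 (0.33), Mrpl58 (0.29), Mrps22 (0.32), Mrps34 (0.38) and Mrps18a (0.47) were also higher, each with an adjusted p of 0.0406 or less. Of these and the 8 largest, Mrpl10, Mrps22, Mrpl11, Mrpl52, Mrpl58 and Mrps34 passed in 5, 6, 8, 9, 9 and 10 of the 13 alternatives tried, and the others in all 13. Mrps12 (0.19), Mrpl44 (0.16), Mrpl3 (0.15), Mrps2 (0.10) and Mrps18b (-0.19) did not pass. Ranges lay wholly above Room-air in 27 genes and wholly below in 3, where 9.9 and 16.5% of all genes did so.

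The count in air against Room-air was 20 without air 2 or without air 3 and 42 without air 1. Air had 9.8 to 13.5 M counts a library and Room-air 25.3 to 30.2 M. No marker list passed here either, under the same limit of the exact test. Endothelial, pericyte and choroid plexus or ependymal markers in air were at 0.557, 0.608 and 0.359 of their Room-air level (exact permutation tests, adjusted p = 0.0982 each). Fibroblast and erythroid markers were at 0.644 and 0.709 of it (adjusted p = 0.126 and 0.152), and oligodendrocyte and neuronal markers at 1.43 and 1.27 times it (adjusted p = 0.0982 and 0.126), while the other 3 lists had adjusted p of 0.383 or more. Their part in the fold changes was not tested.

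**Figure D3:**
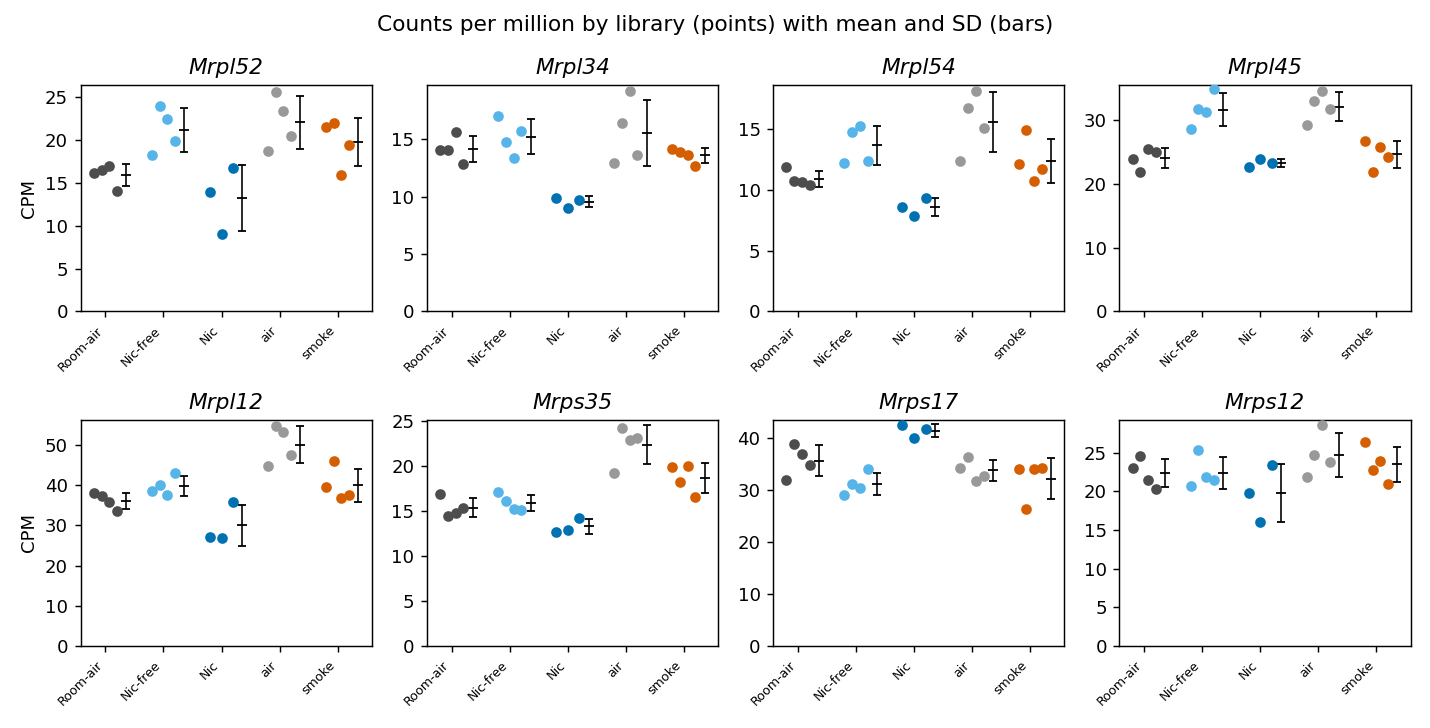
CPM (vertical axis, from 0) of 8 genes in each library, as points by group, with the mean and SD as a bar beside each group. Mrpl34 is lowest in Nic, Mrps17 is highest in Nic, Mrps35 and Mrpl12 are highest in air, and Mrps12 overlaps in all 5 groups.

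Whether smoke and vapour acted differently was tested as a difference of effects in the fit of all 19 libraries. Each effect was taken against the air set used as its control, a pairing chosen by the style of the titles. The smoke effect minus the Nic effect passed for 0 of the 77 genes in either direction by edgeR, where 5.59% of 16557 genes passed, 2.78% higher and 2.8% lower. At an unadjusted p under 0.05, 1 was higher and 7 lower, and DESeq2 called 0 higher and 1 (Mrpl3) lower. Shares of all genes at that unadjusted p are not given here either. The same test recovered 2% of simulated differences of 0.32 and 20% of those of 0.58 on the log2 scale, each in 50 randomly drawn genes. The median difference was 0.03, and among the genes with set roles the values ran from -0.40 (Mrps22) to 0.37 (Mrps18b).

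The smoke effect minus the Nic-free effect was below 0 for 16 genes and above 0 for 0, where 21.5% of genes passed, 10.3% below and 11.2% above. Mrpl45 had the largest difference, -0.81 ± 0.12 on the log2 scale (adjusted p = 0.000237), followed by Mrps18c (-0.74), Mrpl30, Mrpl54 and Mrps16 (-0.69 each), Mrps14 (-0.67), Mrpl20 (-0.60) and Mrpl13 (-0.58). Mrpl12 (-0.49), Mrps22 (-0.45), Mrps18a (-0.40) and Mrpl10 (-0.32) passed as well, but in only 11, 6, 7 and 12 of the 20 alternatives tried. Mrpl13 passed in 14 of the 20, and the other 7 of the 8 largest in all 20. Mrpl11 (-0.37), Mrps34 (-0.35), Mrpl44 (-0.34), Mrpl58 (-0.27), Mrpl3 (-0.12), Mrps12 (-0.11), Mrps2 (-0.05) and Mrps18b (0.38) did not. Each difference takes in both air sets, which themselves differed in 36 of these genes.

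Over the 7 comparisons 44 of the 77 genes (57.1%) were called at least once and 33 in none, where 49.8% of the 15230 genes tested in all 7 were called at least once. Those never called included Mrps12, Mrpl3, Mrpl44, Mrps2, Mrps18b, Mrpl4, Mrpl37 and Mrps5, and also Mrps36.

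Other genes of mitochondrial translation and upkeep were taken from 8 lists, and differences between lists were not tested. In Nic against Nic-free 29 of the 117 tested passed, 15 higher and 14 lower. This was close to the share of all genes, of which 24.8% passed, 12.4% in each direction. The list of 21 mitochondrial tRNA synthetase genes, which charge the tRNAs, also holds the amidotransferase subunits Gatb, Gatc and Qrsl1 and the formyltransferase Mtfmt. Of the 21, 3 were higher and 4 lower in Nic than in Nic-free, with Lars2 lowest (-0.94) and Ears2 highest (0.55). Of 14 translation factors and genes listed with them 13 had a row. Of these 1 was higher (Mtrf1l, a release factor, 0.37) and 2 lower (Letm1, -0.36, and Oxa1l, the inner membrane insertase, -0.26). Of 23 assembly factors 3 were higher, led by Mterf3 (0.58), and 2 lower, Mpv17l2 (-0.71) and Rbfa (-0.46). Of 5 further subunits of the same ribosome with other names, Aurkaip1 was lower (-0.51) and Ptcd3 higher (0.36).

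Of 17 genes of mitochondrial RNA maturation, Mtpap, which adds poly(A) tails, was higher (0.36) and Hsd17b10, a part of RNase P, lower (-0.59) in Nic than in Nic-free. Of 13 genes of mitochondrial DNA and transcription 2 were higher (Mgme1, 0.40, and Polg, the DNA polymerase, 0.29) and 1 lower (Top1mt, -0.45). Of 13 regulators of biogenesis 3 were higher, the GABP subunits Gabpa (0.58), Gabpb2 (0.55) and Gabpb1 (0.52), and Sirt3, a mitochondrial deacetylase, was lower (-0.66). Of 12 genes of protein quality control, Yme1l1 was higher (0.40), and Clpp (-0.42) and Lonp1 (-0.34), both matrix proteases, were lower. Median log2 fold changes of these 8 lists ran from -0.19 to 0.24, where that of the 77 genes was -0.26.

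In the other comparisons the 8 lists held from 0 to 24 calls among 117 genes, where 1.6 to 22.7% of all genes passed. Nic-free against Room-air held 11, 8 higher and 3 lower, where 21.8% of all genes passed. In Nic-free against Room-air, 3 of 23 assembly factors were higher (Rbfa, 0.42, Mpv17l2, 0.41, and Nsun4, 0.38) and 1 lower (Mterf4, -0.31). Among the synthetases Lars2 was higher (0.82) and Wars2 lower (-0.40). Dap3, a small subunit GTP-binding protein, was higher (0.24), as were Ppargc1b (0.66), Sirt3 (0.36) and Clpp (0.28), while Gabpb2 was lower (-0.46). In Nic against Room-air 1 gene of the 8 lists passed, Fars2 (-0.79). In smoke against air 0 genes of the 8 lists were higher and 0 lower.

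Air against Room-air held 24 calls among the 117 genes, 20 higher and 4 lower. Of all genes 22.7% passed, 10.7% higher and 12.0% lower. Of the 21 genes in the synthetase list 6 were higher, led by Gatb (0.44), Aars2 (0.41) and Sars2 (0.34), and Wars2 was lower (-0.55). Of 23 assembly factors 4 were higher, led by Nsun4 (0.47), Mrm3 (0.46) and Rbfa (0.44), and Mterf4 was lower (-0.37). Of 5 further subunits 3 were higher: Aurkaip1 (0.45), Chchd1 (0.39) and Dap3 (0.31). Of 12 genes of protein quality control 4 were higher, led by Ddit3 (0.51), Hspe1 (0.38) and Clpp (0.30), and 0 lower. Sirt3 was higher (0.47) among the regulators, where Myc (-0.52) and Gabpb2 (-0.31) were lower. The release factor Mtrf1 (0.44) and Mterf2 (0.39) were the single calls of their lists, and 0 of 17 genes of RNA maturation passed.

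The smoke effect minus the Nic-free effect passed for 15 of the 117 genes of the 8 lists, 8 above 0 and 7 below. Of all genes 21.5% passed. Those above were Wars2 (0.87), Taco1 (0.83), Mgme1 (0.62), Gabpb2 (0.58), Mterf4 (0.54), Polg (0.41), Pprc1 (0.37) and Ptcd1 (0.35). Below 0 were Lars2 (-2.50), Nsun4 (-0.71), Mterf2 (-0.66), Mtrf1 (-0.64), Hspe1 (-0.62), Rbfa (-0.49) and Dap3 (-0.44). For smoke minus Nic 3 of the 117 passed, where 5.59% of all genes did: Fars2 (0.90), Wars2 (0.76) and Mterf2 (-0.79).

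**Figure D4:**
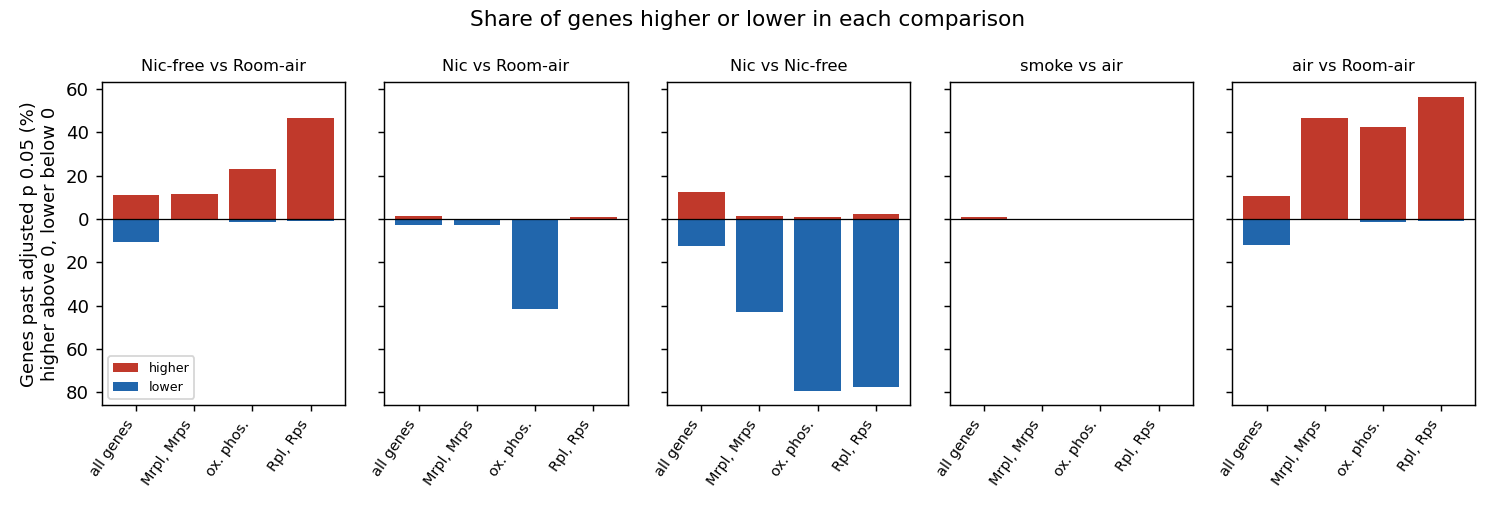
Share of genes past an adjusted p of 0.05 (vertical axis, %, higher above 0 and lower below 0) among all genes tested, the 77 Mrpl and Mrps genes, 87 nuclear oxidative phosphorylation genes and 94 cytosolic ribosomal protein genes, in 5 comparisons. In Nic against Nic-free the lower bars of the 3 gene groups are far longer than that of all genes, at 12.4%. The oxidative phosphorylation and cytosolic ribosomal groups were taken by symbol, as stated below.

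Both kinds of gene most tied to these, of oxidative phosphorylation and of the cytosolic ribosome, were set beside them by symbol. The nuclear oxidative phosphorylation genes are those with symbols beginning with Ndufa, Ndufb, Ndufc, Ndufs, Ndufv, Cox4 to Cox8, Atp5 or Uqcr. That pattern also fits ATP synthase subunits and the Ndufaf assembly factors. The cytosolic ribosomal protein genes are those beginning with Rpl or Rps and a number, with Rplp0 to Rplp2 and Rpsa. That pattern also fits genes of other proteins, such as the S6 kinases (Rps6k), and they were not taken out. In Nic against Nic-free 69 of 87 nuclear oxidative phosphorylation genes were lower and 1 higher (median -0.58), and 73 of 94 cytosolic ribosomal protein genes were lower and 2 higher (median -0.64), against 33 and 1 of the 77 (median -0.26). In Nic against Room-air 36 oxidative phosphorylation genes (41.4%) were lower and 0 higher (median -0.40). Of the 77, 2 (2.6%) were lower there, close to the 2.67% of all genes tested. In Nic-free against Room-air 44 cytosolic ribosomal protein genes were higher and 1 lower (median 0.38), and 20 oxidative phosphorylation genes were higher and 1 lower (median 0.15). In air against Room-air 53 cytosolic ribosomal protein genes (median 0.49) and 37 oxidative phosphorylation genes (median 0.32) were higher and 1 of each was lower. Of all genes tested, 12.4% were lower and 12.4% higher in Nic against Nic-free. For Nic-free against Room-air 11.3% were higher and 10.4% lower, and for air against Room-air 10.7 and 12.0%. Differences between the gene groups were not tested.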

How the data were processed

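RNA was sequenced as 80 nt single-end, strand-specific reads of polyadenylated RNA. The authors used STAR, HTSeq and the build mm10, per the submitters' processing notes (versions and strand setting not given in the sources used here). The deposited values are raw counts per Ensembl gene; 5 summary lines naming no gene were left out of totals and tests. CPM are counts scaled to 1e6 per library over all genes, without TMM factors. Positions and types are from GENCODE M21.

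edgeR 4.0.16 in R 4.3.3 (TMM, filterByExpr, glmQLFit robust, glmQLFTest, two-sided, Benjamini-Hochberg over all genes tested, threshold 0.05) was fitted to 11 libraries for Room-air, Nic-free and Nic, to 8 for smoke against air, and to 19 for air against Room-air and both differences of effects. The scripts were tested on simulated data. Alternatives were RLE size factors, no low-count filter, a replicate block, DESeq2 1.42.0, other sets of libraries, the other air set as control, and leaving out each library. Libraries of a group were not duplicates: their counts differed by at least 8.41 times sampling noise (chi-square per degree of freedom).

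Named were the 8 largest calls per direction and comparison, genes by role, the 5 highest and 5 lowest per exon length, and 3 per pathway list and direction. Members, lists and tests were chosen with earlier results of these data known, and the motifs (5 of 15 spellings), principal transcript lengths and the overlap check after values were seen.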

Additional observations from a re-analysis of the deposited data

Results flagged for a closer look

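For 16 genes the smoke effect differed from the Nic-free effect by a test of the difference itself (edgeR, adjusted p under 0.05). They were 20.8% of the 77, where 21.5% of all genes tested passed, 10.3% below 0 and 11.2% above. All 16 differences were negative on the log2 scale: Mrpl45 (-0.81, adjusted p = 0.000237), Mrps18c (-0.74, 0.0064), Mrpl30 (-0.69, 0.00411), Mrps16 (-0.69, 0.013), Mrpl54 (-0.69, 0.0164), Mrps14 (-0.67, 0.00189), Mrpl20 (-0.60, 0.00969) and Mrpl13 (-0.58, 0.0278). The others were Mrpl41 (-0.51, 0.0103), Mrpl12 (-0.49, 0.0331), Mrpl2 (-0.46, 0.0249), Mrps22 (-0.45, 0.0488), Mrps15 (-0.43, 0.0158), Mrpl1 (-0.42, 0.0366), Mrps18a (-0.40, 0.0381) and Mrpl10 (-0.32, 0.0331). Both air sets enter each value.

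A library far from the rest of its group was found in 7 of 168 groups checked, where chance gives about 1 in 20. Smoke 2, the shallowest library, had 37.2 CPM of Mrpl3 (nearest other 47.4), 26.3 CPM of Mrps17 (34.0) and 14.6 CPM of Mrpl44 (13.1). Room-air 1 had 22.5 CPM of Mrpl17 (19.9) and 24.2 CPM of Mrps2 (21.1). Nic-free 3 had 19.96 CPM of Mrpl19 (22.7), and air 3 had 19.6 CPM of Mrpl44 (16.3).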

How the results depend on the processing

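With the other air set as control, Nic-free against it gave 6 calls (all lower), Nic 51 (all lower) and smoke 1 (higher). Nic-free against Room-air gave 4 calls with no low-count filter and 5 with all 19 libraries in one fit, Nic against Room-air 7 by DESeq2 and 1 when only the groups compared were fitted, smoke against air 2 by DESeq2 and 3 with all 19 libraries, and smoke minus Nic 1 by DESeq2. Leaving out single libraries gave 2 to 10 calls for Nic-free against Room-air, 0 to 26 for Nic against Room-air, 15 to 42 for Nic against Nic-free, 20 to 42 for air against Room-air, 0 to 2 for smoke minus Nic, 10 to 26 for smoke minus Nic-free and 0 to 0 for smoke against air. The cause of these moves was not tested, and shares of all genes passing under each alternative are not given here. RLE size factors and the 67 genes without large shared exons gave counts within 1.5 times in all 7 comparisons.

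Equal replicate numbers did not pair libraries (r of same-numbered deviations -0.49 to 0.53, over 0.1 in 9 of 36 pairs). With the replicate block 5 genes passed in Nic-free against Room-air, Mrps18c in Nic against Room-air had -0.01 and Mrpl12 in smoke minus Nic 0.01; other counts stayed within 1.5 times.

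Signs also turned for single genes, on the log2 scale. With the air set as control of Nic-free: Mrpl52 (-0.06), Mrpl45 (-0.03), Mrpl30 (-0.17), Mrpl54 (-0.19), Mrps18c (-0.17), Mrpl20 (-0.18), Mrpl48 (-0.13), Mrpl41 (-0.07), Mrpl12 (-0.33), Mrpl10 (-0.06), Mrpl11 (-0.17), Mrps12 (-0.15), Mrpl44 (-0.15), Mrps16 (-0.26), Mrps22 (-0.28), Mrps34 (-0.16), Mrpl58 (-0.23) and Mrps18a (-0.37). With it as control of Nic: Mrps22 (-0.33), Mrps18b (0.01) and Mrps18c (-0.54). With Room-air as control of smoke: Mrpl12 (0.19), Mrpl10 (0.05), Mrpl11 (0.12), Mrps12 (0.12), Mrps16 (0.14), Mrps34 (0.26), Mrpl58 (0.07), Mrps18a (0.18) and Mrps18c (0.15). In Nic against Room-air, Mrps22 and Mrps18c had -0.01 each with all 19 libraries and -0.02 and -0.03 with only the groups compared.

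Values near 0 changed sign when a library was left out. In Nic-free against Room-air the ranges were -0.02 to 0.09 (Mrps12), -0.07 to 0.02 (Mrpl3), -0.01 to 0.05 (Mrpl44) and -0.04 to 0.12 (Mrps22). They were -0.07 to 0.08 (Mrps22) and -0.10 to 0.12 (Mrps18c) in Nic against Room-air, -0.06 to 0.11 (Mrps2 and Mrps18b) in Nic against Nic-free, and -0.13 to 0.03 (Mrps12) in smoke against air. In smoke minus Nic they were -0.15 to 0.16 (Mrpl12), -0.08 to 0.12 (Mrpl11), -0.19 to 0.06 (Mrpl44), -0.19 to 0.01 (Mrps2), -0.03 to 0.09 (Mrpl58) and -0.16 to 0.05 (Mrps18a), and in smoke minus Nic-free -0.18 to 0.03 (Mrps2). Over all alternatives, calls of named genes were lost without a change of sign 40 times in Nic-free against Room-air, 9 in Nic against Room-air, 29 in Nic against Nic-free, 31 in air against Room-air and 50 in smoke minus Nic-free.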
